A study of Mus musculus with 24 samples.

Results

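Mouse macrophages made from induced pluripotent stem cells (iPSC-derived macrophages) were profiled by RNA-seq before co-culture, at day 0, and after 6 days of co-culture. The comparison rests on 6 of the 24 libraries of the series, chosen by their titles: 3 labelled day 6 with co-culture and 3 labelled day 0 without it. The full design has 2 sources, iPSC-derived and bone marrow-derived, each sampled at days 0, 3, 6 and 12 with n = 3. Replicates are independent per the series' design text, and the p-values measure only the spread between them. All 6 libraries were made from total RNA, and the day 0 libraries are from the same batch as the co-cultured ones per the design text. The labels name no mouse strain, genotype, iPSC line or clone, no added agent and no co-culture partner, and do not say whether the macrophages were separated from that partner before RNA extraction. Day 0 and day 6 differ in both time and co-culture, and these cannot be told apart.

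Macrophages grown from pluripotent stem cells arise by a primitive route of blood development, the route that also supplies microglia, the resident macrophages of the brain. Microglia carry a characteristic set of receptors and secreted proteins, which depends on cues from the surrounding tissue such as TGF-beta and lipids, and which cultured macrophages hold at low levels. Macrophages also adjust sugar use, amino acid supply, interferon-inducible defence genes and division to their medium and neighbours.

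The 6 libraries held 7945459 to 10486809 counts and 15676 to 18151 genes with a count. Levels are given as counts per 1000000 (CPM) of the scaled library total. Changes are log2 fold changes, day 6 over day 0, with a standard error (SE) worked back from the test statistic. A gene rose, fell or changed only where edgeR's quasi-likelihood test gave an adjusted p below 0.05 over the 13530 genes tested. Libraries of 1 group were closer to each other (correlations of 0.944 to 0.955 at day 0 and 0.917 to 0.931 at day 6) than to the other group (0.849 to 0.885). Day 6 replicate 1 had 6.28% of its counts on mitochondrial genes, against 3.18% to 4.31% in the other 5 libraries. All 16 macrophage markers listed were present at both times, with a summed level of 10310 to 12640 CPM at day 0 and 15620 to 20900 CPM at day 6.

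In all, 1353 genes rose and 1135 fell, which is 10% and 8.39% of all genes tested. The median over all tested genes was 0.05 on the log2 scale. The median rise among called genes was 1.84 and the median fall was -1.12, and 640 rises but 200 falls were at least 4-fold. Of the risen genes, 448 averaged under 1 CPM at day 0. Among the called genes, 1311 rises and 1115 falls had no overlap between the 3 and 3 libraries, while groups without overlap were found for 18.9% (higher) and 17.9% (lower) of all tested genes. Leaving out 1 library gave 1603 (day 0 replicate 1), 1609 (day 0 replicate 2), 2080 (day 0 replicate 3), 1752 (day 6 replicate 1), 1911 (day 6 replicate 2) or 2269 (day 6 replicate 3) calls in place of 2488.

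The 12 largest rises with at least 20 CPM at day 6 included several genes of the extracellular matrix. Col8a1, a short-chain collagen, had no count at day 0 and 29.5, 7.30 and 43.9 CPM at day 6, at least 267-fold higher when 3 counts over the group are taken as the floor. Bmp2, a secreted growth factor of the BMP family, had 0.106, 0.106 and 0 CPM at day 0 and 41.0, 28.5 and 14.05 CPM at day 6. With so few counts at day 0 its ratio was 383, with an exact 95% counting interval from 106 to 3171. Every day 6 library was far above every day 0 library for both genes, and absence of overlap was part of how the 12 were chosen. The list also held the collagens Col1a1, Col1a2 and Col5a2, the matrix proteins Dcn (decorin), Npnt (nephronectin) and Ncan (neurocan), the protease inhibitor Timp3, the matricellular Sparcl1 and the imprinted noncoding RNAs Meg3 and H19. Day 6 replicate 2 was the lowest of the day 6 libraries for Col8a1, Dcn, Timp3, Col1a2, Col5a2, Col1a1 and H19. Intervals and floors of this kind cover counting error only. In bulk RNA, fewer cells of a type and less RNA per cell cannot be told apart.

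The 12 largest falls with at least 20 CPM at day 0 included genes known from activated macrophages and from amino acid stress. Acod1, which makes the antimicrobial metabolite itaconate, went from 1342, 1193 and 790 CPM to 2.63, 3.48 and 1.72 CPM (log2 fold change -8.74 ± 0.53 SE, adjusted p = 2.5e-06). Aqp9, a water and glycerol channel, had 50.4, 39.5 and 20.1 CPM at day 0 and no count at day 6, at least 334-fold lower. Cxcl2, a neutrophil-attracting chemokine, went from 132, 138 and 15.7 CPM to 0.358, 0.348 and 0.860 CPM (-7.43 ± 0.93, adjusted p = 0.00029). In GRCm38, Acod1 lies on chromosome 14 at 103046977 to 103056573. The remaining 9 were the orphan receptor gene Gpr141, the carbonic anhydrase Car6, the cystine transporter Slc7a11, the prostacyclin receptor Ptgir, the lectin receptor Clec4e, the pseudokinase Trib3, the lipid flippase Atp8b4, the interferon-induced chemokine Cxcl10 and the small GTPase Gem. In 6 of these 12 genes, day 0 replicate 3 had under 0.5 times the level of either other day 0 library, which held for 5.2% of all falls and 6.2% of all tested genes. No library of day 6 reached the level of any day 0 library in any of the 12, which is part of how they were chosen.

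**Figure D1:**
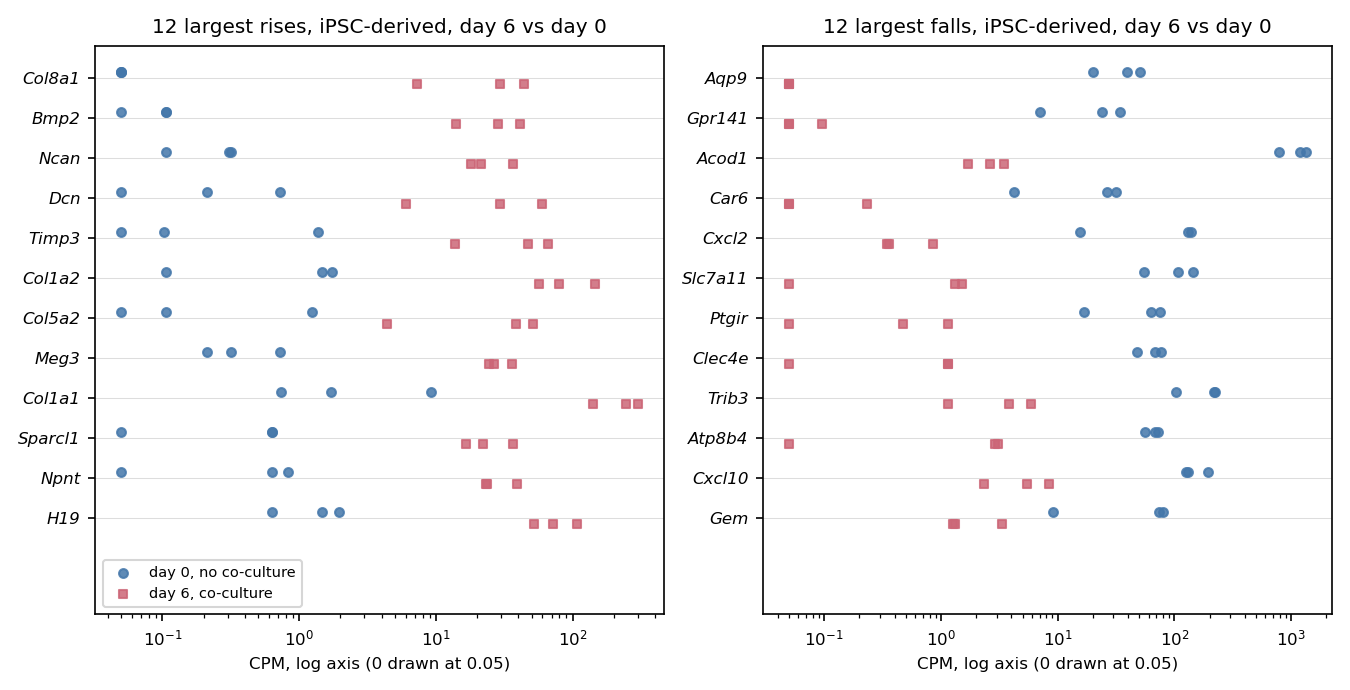
CPM in each of the 6 libraries (log axis, 0 drawn at 0.05) for the 12 largest rises and the 12 largest falls; blue circles are day 0, red squares day 6. The 2 groups do not overlap for any gene shown, which is part of how the genes were chosen, and Acod1 lies at 790 to 1342 CPM at day 0 and 1.72 to 3.48 CPM at day 6.

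Genes of homeostatic microglia were mostly higher at day 6. Of 24 tested members 17 rose and 0 fell, with a median of 1.70. In 20 the day 6 libraries all lay above the day 0 libraries, and in 2 all below. Over all tested genes these shares were 18.9% and 17.9%. Fcrls, an Fc receptor-like gene of microglia, went from 127, 112 and 67.9 CPM to 2906, 3167 and 2341 CPM (4.78 ± 0.37, adjusted p = 4.8e-06). Slco2b1, an organic anion transporter, went from 16.2, 29.6 and 28.8 CPM to 259, 399 and 313 CPM (3.70 ± 0.28, adjusted p = 3.0e-06). The fractalkine receptor Cx3cr1 went from 117, 98.3 and 47.7 CPM to 1152, 1710 and 1041 CPM (3.89 ± 0.37, adjusted p = 2.5e-05). In all 3 genes the lowest day 6 library lay several times above the highest day 0 library. In GRCm38 coordinates Fcrls (ENSMUSG00000015852.13) is on chromosome 3 at 87250758 to 87263738.

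Other microglial genes rose less, or not by the test. P2ry12, the purine receptor of microglial processes, went from 19.8, 18.4 and 27.4 CPM to 70.1, 103 and 62.6 CPM (1.84 ± 0.31, adjusted p = 0.00094). Tmem119, a microglial membrane protein, had 1.48, 0 and 3.30 CPM at day 0 and 28.7, 34.9 and 39.9 CPM at day 6 (4.42 ± 0.69, adjusted p = 0.00116). Sparc, a matricellular protein made by microglia and by fibroblasts, went from 3.49, 3.60 and 2.27 CPM to 141, 40.1 and 172 CPM. The macrophage growth factor receptor Csf1r went from 1609, 1515 and 976 CPM to 2274, 2888 and 2239 CPM (0.85 ± 0.23, adjusted p = 0.0172), a call lost at a log2 fold change of 0.76 without day 6 replicate 2. Gpr34, a lysophospholipid receptor, went from 70.8, 52.3 and 32.7 CPM to 256, 446 and 186 CPM (2.51 ± 0.68, adjusted p = 0.0253), and its call was lost without day 6 replicate 2 or any 1 of the day 0 libraries (2.13 to 2.85). Sall1, a transcription factor that marks microglia, had no count at day 0 and 1.19, 1.28 and 0.669 CPM at day 6 (adjusted p = 0.0749). Sall1 passed the threshold with DESeq2 (adjusted p = 0.0174), and in edgeR without the filter on low counts (0.00525) or with all 24 libraries (0.0222). Trem2, a lipid-sensing receptor, had 723, 755 and 874 CPM at day 0 and 1308, 717 and 1305 CPM at day 6 (adjusted p = 0.18), with overlapping groups because day 6 replicate 2 was low; without that library it was called at 0.77.

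Of 27 tested transcription factors of macrophages 10 rose and 2 fell (median 0.41). Among all tested genes 10% rose and 8.39% fell, so the falls were near the general share. Mef2c, a MADS-box factor of microglia, went from 97.1, 102 and 136 CPM to 602, 649 and 537 CPM (2.41 ± 0.17, adjusted p = 2.2e-06). Runx1, a factor of blood development, went from 61.7, 59.8 and 59.4 CPM to 179, 165 and 141 CPM (1.42 ± 0.21, adjusted p = 0.00039). Nr4a1, an orphan nuclear receptor and immediate early gene, had 0.528, 0.424 and 0.103 CPM at day 0 and 23.4, 8.23 and 24.1 CPM at day 6 (5.68 ± 0.85, adjusted p = 0.00058). Sall3, a relative of Sall1, rose by 2.82 to 14.9 to 29.4 CPM. The 2 falls were in Bhlhe40 and Klf6, at -1.12 and -0.78. The Bhlhe40 call was lost without day 0 replicate 1, day 0 replicate 2 or day 6 replicate 2 (-1.003 to -0.948), and the Klf6 call without any 1 library other than day 0 replicate 3 (-0.85 to -0.51).

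Lipid export was among the groups with most rises: 9 of 15 tested genes of lipid efflux and the liver X receptor rose and 1 fell (median 1.74). Apoe, the lipoprotein that carries lipids out of macrophages and glia, went from 3761, 4025 and 4631 CPM to 50540, 29650 and 45660 CPM (3.34 ± 0.27, adjusted p = 3.5e-06). Apoe lies on chromosome 7 at 19696109 to 19699188. Abca1, the cholesterol exporter that loads such particles, went from 162, 147 and 182 CPM to 878, 815 and 671 CPM (2.27 ± 0.18, adjusted p = 4.1e-06). Mylip, a ligase that degrades the LDL receptor, rose by 1.74 ± 0.19 and Pltp, a phospholipid transfer protein, by 2.62 ± 0.30. All 3 libraries of day 6 exceeded all 3 of day 0 in these 4 genes. Scd1, a fatty acid desaturase and the 1 member that fell, went from 40.9, 28.4 and 64.9 CPM to 15.6, 11.6 and 20.4 CPM (-1.49 ± 0.36, adjusted p = 0.00989), a call lost at -1.08 without day 0 replicate 3.

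Receptors and bridging proteins for the uptake of cells and particles were called higher more often than lower. Of 29 tested phagocytic and efferocytosis genes, 9 rose and 2 fell (median 0.68). Mertk, the receptor that binds dying cells through bridging proteins, went from 48.3, 56.7 and 62.4 CPM to 205, 193 and 273 CPM (2.01 ± 0.24, adjusted p = 7.5e-05). Itgb5, an integrin subunit for the same task, went from 32.8, 38.6 and 53.6 CPM to 236, 256 and 209 CPM (2.49 ± 0.22, adjusted p = 7.1e-06), while Itgb3, the alternative partner in that integrin, fell from 93.9, 91.2 and 62.7 CPM to 21.9, 18.7 and 12.0 CPM (-2.24 ± 0.31, adjusted p = 0.00029). The scavenger receptor Stab1 rose by 2.27 ± 0.31 to 1809 to 2267 CPM, and the inhibitory receptor Cd300lf fell by 3.25 ± 0.46. The Itgb5 and Itgb3 groups each had no overlap, in opposite directions.

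Complement had 4 rises and 0 falls among 18 tested genes (median 0.35): C1qa, a chain of the first complement component, went from 324, 322 and 231 CPM to 1805, 873 and 1694 CPM (2.32 ± 0.24, adjusted p = 2.7e-05), C1qb rose by 1.42 and the receptor C5ar2 by 1.84. C1qc, another chain of the same component, was tested and not called. Among 44 tested lysosomal proteins 6 rose and 7 fell (median 0.10), with the mannosidase Man2b1 from 423, 431 and 403 CPM to 1319, 1469 and 1368 CPM (1.73 ± 0.18, adjusted p = 2.5e-05) and the proton pump subunit Atp6v1a from 1305, 1077 and 1091 CPM to 663, 669 and 748 CPM (-0.74 ± 0.14, adjusted p = 0.00245). Over all tested genes 10% rose and 8.39% fell. The lysosomal rises were 3 without day 6 replicate 1, day 6 replicate 2 or day 0 replicate 2, 3 with no scaling factors, and 10 with DESeq2, with its size factors in edgeR or with all 24 libraries in the fit. Of 16 cathepsins and inhibitors 7 rose and 2 fell (median 0.56), led by the aspartic protease Ctsd at 1.19 ± 0.20; the rises were 4 without day 6 replicate 1 or day 0 replicate 2, and the falls 0 without day 6 replicate 2. Genes described in disease-associated microglia had 6 rises, 3 without day 0 replicate 2, and 4 falls among 24 tested (median 0.12). That list's rises included Apoe and the beta-glucan receptor Clec7a, which went from 65.2, 76.2 and 91.0 CPM to 398, 480 and 185 CPM (2.19 ± 0.42, adjusted p = 0.0042), and its falls the galectin Lgals3, from 2844, 3028 and 4567 CPM to 443, 231 and 1017 CPM (-2.63 ± 0.54, adjusted p = 0.00652), and the ferritin chain Fth1 at -1.95 ± 0.43.

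The TGF-beta and BMP group had 13 rises and 0 falls among 28 tested genes (median 1.27). Beside the ligand gene Bmp2, both chains of the TGF-beta receptor rose: Tgfbr1 went from 129, 92.0 and 111 CPM to 267, 336 and 257 CPM (1.37 ± 0.18, adjusted p = 0.00016), and Tgfbr2 from 206, 161 and 166 CPM to 548, 596 and 489 CPM (1.62 ± 0.23, adjusted p = 0.00032). Among known targets, Pmepa1, a feedback inhibitor of the pathway, had 0, 0 and 0.103 CPM at day 0 and 13.9, 19.4 and 10.2 CPM at day 6. Col4a1, a basement membrane collagen, went from 0.845, 1.80 and 0.515 CPM to 54.7, 57.5 and 55.6 CPM (5.72 ± 0.55, adjusted p = 1.7e-05), with the 3 day 6 libraries within a narrow band. Col4a1 is also made by fibroblasts and endothelial cells, whose markers are given further on.

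Some secreted growth factors and fetal genes rose. Of 20 tested trophic factors 8 rose and 1 fell (median 0.85): Pdgfb went from 12.5, 13.2 and 8.45 CPM to 53.4, 52.6 and 42.9 CPM (2.12 ± 0.32, adjusted p = 0.00051), Pdgfc from 0.423, 0 and 0 CPM to 8.84, 11.6 and 11.5 CPM (6.12 ± 0.91, adjusted p = 0.00046), and the stress-induced hormone Gdf15 fell from 100, 102 and 88.8 CPM to 11.7, 2.43 and 5.93 CPM (-3.86 ± 0.49, adjusted p = 0.00016). Of 20 tested imprinted and fetal growth genes 8 rose and 0 fell (median 0.97, 1.81 to 1.87 without any 1 library of day 0, and 0.14 in a fit of the 6 libraries alone). Meg3 went from 0.211, 0.318 and 0.721 CPM to 24.6, 35.7 and 26.4 CPM (6.07 ± 0.66, adjusted p = 3.8e-05), and H19 from 1.48, 0.636 and 1.96 CPM to 71.8, 52.2 and 107 CPM (5.81 ± 0.65, adjusted p = 9.0e-05). Dlk1, a secreted Notch-related protein of fetal tissue, rose from 0, 0 and 0.103 CPM to 7.16, 4.87 and 7.17 CPM, and the zinc finger gene Peg3 by 1.84 ± 0.31.

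Receptors for cytokines rose more often than they fell, 13 against 4 of 27 tested (median 0.69). For this and the next lists, the shares among all tested genes were 10% higher and 8.39% lower. Ifngr1, the ligand-binding chain of the interferon-gamma receptor, went from 219, 183 and 188 CPM to 422, 603 and 441 CPM (1.32 ± 0.17, adjusted p = 0.00018). The falls were in Il7r, the interleukin-7 receptor, from 149, 140 and 54.5 CPM to 2.51, 3.25 and 8.41 CPM (-4.58 ± 0.57, adjusted p = 0.00021), in Csf2ra, the GM-CSF receptor chain (-1.42 ± 0.22), in Il18rap (-2.72 ± 0.51), and in the decoy receptor Il1r2. Il1r2 had 1.48, 3.28 and 1.03 CPM at day 0 and no count at day 6, at least 17.6-fold lower, and its call was lost whichever of the 6 libraries was left out. Among 15 tested toll-like receptor genes 5 rose and 0 fell (median 0.43), with Tlr1 from 30.7, 27.9 and 36.5 CPM to 100.5, 92.8 and 85.9 CPM (1.55 ± 0.25, adjusted p = 0.00076). Of 12 tested genes of MHC class II presentation 3 fell and 2 rose (median -0.35), and the rises were 0 without day 6 replicate 1, day 0 replicate 1 or day 0 replicate 2. Cd74, the invariant chain, went from 50.9, 60.3 and 10.7 CPM to 3.22, 5.22 and 5.07 CPM (-3.17 ± 0.58, adjusted p = 0.00208). H2-Aa and H2-Eb1, class II chains, had 2.06 to 27.7 CPM at day 0, over 10-fold apart between libraries for H2-Aa, and at most 0.0956 CPM at day 6. Day 0 replicate 3 was the lowest of the day 0 libraries for all 3 class II genes and for Il7r, and still lay above day 6. Of 18 tested chemokine genes 4 rose and 4 fell, Cxcl16 by 2.26 ± 0.30 and Cxcl10 from 130, 125.8 and 194 CPM to 8.36, 2.32 and 5.45 CPM (-4.80 ± 0.52, adjusted p = 6.4e-05). The chemokine falls were 2 without day 6 replicate 2, and the rises 2 without day 6 replicate 3, day 0 replicate 1 or day 0 replicate 2.

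Surface receptors, proteases and immediate early genes had rises and some falls, beside shares of 10% and 8.39% among all tested genes. Of 15 tested purine receptors and ectoenzymes 5 rose and 2 fell (median 0.50). P2ry6, the UDP receptor of phagocytes, went from 116, 125.5 and 194 CPM to 372, 424 and 410 CPM (1.47 ± 0.19, adjusted p = 0.00018), and P2ry2, an ATP and UTP receptor, from 37.4, 24.8 and 27.5 CPM to 7.16, 3.25 and 11.5 CPM (-2.03 ± 0.41, adjusted p = 0.00353). The purine rises were 3 without day 6 replicate 2, day 0 replicate 1 or day 0 replicate 2. Of 18 tested metalloprotease and related genes 4 rose and 3 fell (median 0.60), and the rises were 2 without day 0 replicate 2 or 3. Mmp12, the macrophage elastase, went from 47.3, 51.4 and 91.7 CPM to 7.76, 6.84 and 4.87 CPM (-3.29 ± 0.36, adjusted p = 3.9e-05). Of 20 tested immediate early genes 7 rose and 2 fell (median 0.41), with Fos, an AP-1 subunit, from 159, 147 and 199 CPM to 468, 521 and 473 CPM (1.53 ± 0.30, adjusted p = 0.00304); the falls were 0 without any 1 library other than day 0 replicate 3. Jun, another AP-1 subunit, was 1 of those falls (-1.35 ± 0.37, adjusted p = 0.0234).

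Of 16 tested macrophage markers 6 rose and 0 fell (median 0.86). Adgre1, an adhesion receptor of mature macrophages, went from 701, 632 and 738 CPM to 1089, 1276 and 1399 CPM (0.86 ± 0.18, adjusted p = 0.00397). Ptprc, the leukocyte antigen CD45, had 525, 449 and 289 CPM at day 0 and 359, 343 and 390 CPM at day 6, overlapping groups (adjusted p = 0.492). The mannose receptor Mrc1 had 372, 296 and 501 CPM at day 0 and 1014, 756 and 876 CPM at day 6 (1.18 ± 0.41, adjusted p = 0.0675), without overlap. Mrc1 passed the threshold with DESeq2 (adjusted p = 0.00813), without the filter on low counts (2.7e-07), with all 24 libraries (0.011), with the 6 libraries alone (0.00559) and with the replicate block (0.0268). Ccr2, the monocyte chemokine receptor, was at 2.01 CPM or less in all 6 libraries, and its 3 day 0 libraries ran from 0 to that value.

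**Figure D2:**
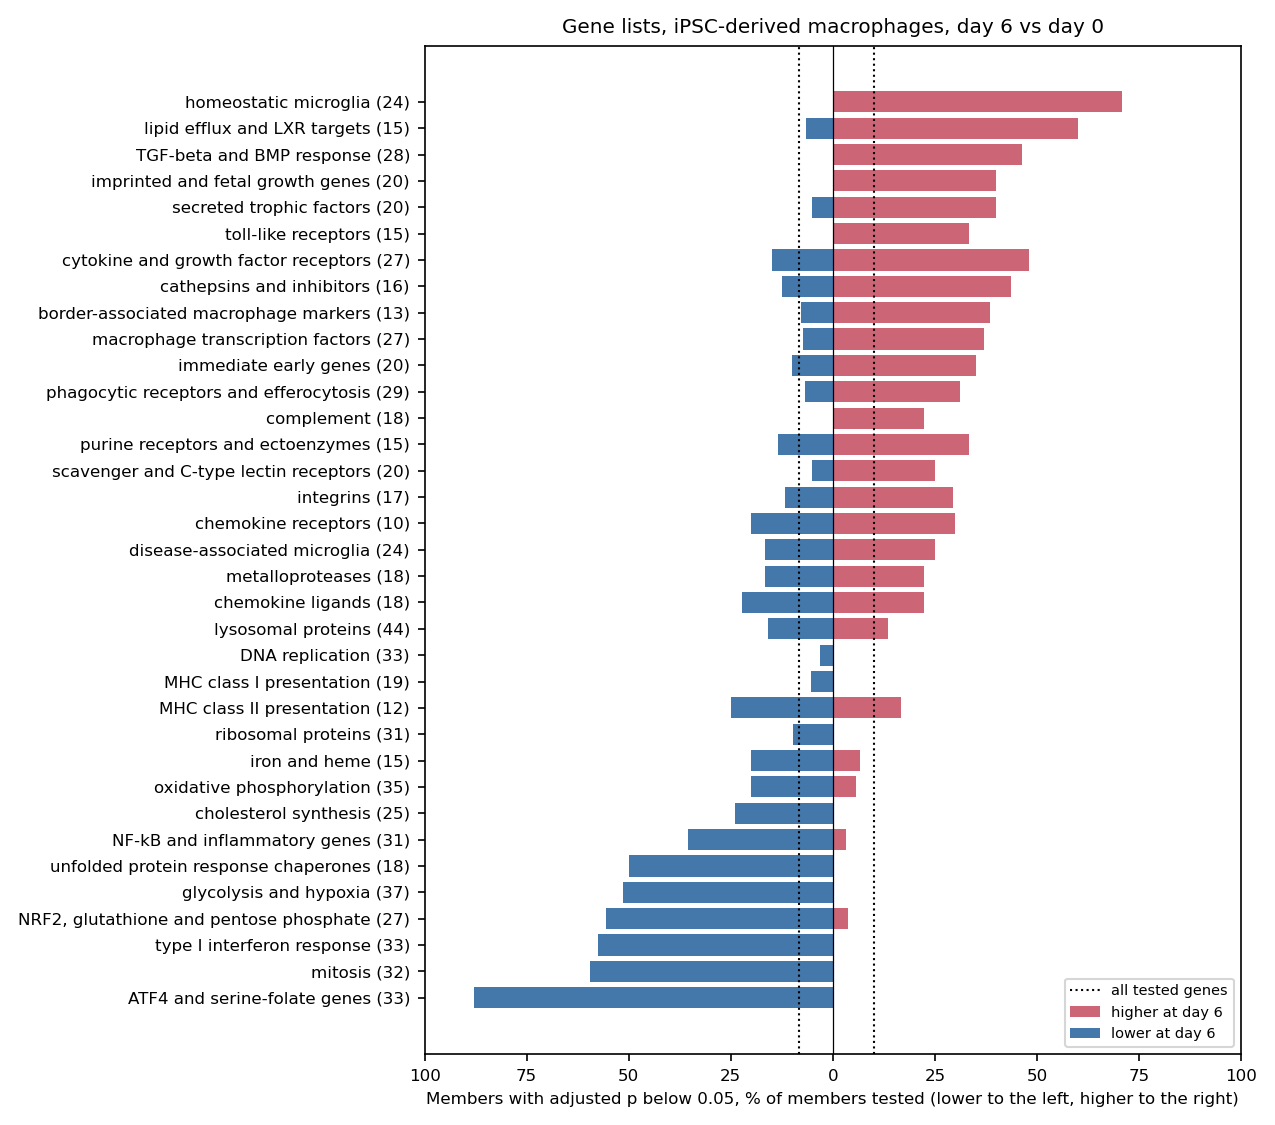
Share of the tested members of each gene list that rose (red, right) or fell (blue, left) at day 6, with the number tested in brackets; dotted lines mark the shares over all tested genes, 10% and 8.39%. The microglial list has 17 of 24 members higher, and the ATF4 list 29 of 33 lower.

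Interferon-inducible genes were lower at day 6. Of 33 tested members 19 fell and 0 rose, with a median of -1.17. In 23 every day 6 library lay below every day 0 library, which held for 17.9% of all tested genes. Oasl1, a 2'-5' oligoadenylate synthetase-like protein, went from 225, 239 and 221 CPM to 13.01, 15.3 and 8.70 CPM (-4.21 ± 0.36, adjusted p = 7.1e-06). Oasl1 lies on chromosome 5 at 114923240 to 114937915. Rsad2, the antiviral enzyme viperin, went from 591, 567 and 839 CPM to 110, 78.2 and 65.6 CPM (-2.98 ± 0.30, adjusted p = 2.5e-05). Oas3 went from 148, 117 and 237 CPM to 29.3, 16.9 and 22.8 CPM (-2.87 ± 0.34, adjusted p = 8.5e-05), and Usp18, which shuts off interferon signalling, from 180, 188 and 247 CPM to 37.0, 39.9 and 39.7 CPM (-2.40 ± 0.31, adjusted p = 0.00016). None of these 4 genes had overlapping groups. Without day 0 replicate 3, the highest day 0 library for Rsad2, Oas3 and Usp18, 11 members were called and the median was -0.75.

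Interferon drives such genes through the interferon-stimulated response element (ISRE) bound by STAT and IRF factors. GAAA, any 2 bases and then GAAA again, searched on both strands in the 250 bases before the RefSeq start, was found for 11 of 23 list members with a promoter sequence (47.8%) and for 3.4% of 9873 tested genes. Among the members that fell it was found for 6 of 15 (40.0%), so it was not more frequent there than in the list. The stretches around the matches of Rsad2 and of Isg15, the ubiquitin-like modifier of this response, show them in capitals on the gene's strand, 5′ to 3′ (RefSeq, GRCm38.p6). Isg15, like Atf4 further on, was chosen after its values were seen, for its 3 overlapping matches, and went from 44.5, 58.6 and 68.6 CPM to 8.84, 5.91 and 20.6 CPM (-2.28 ± 0.48, adjusted p = 0.00464).
Rsad2, chr12:26456533-26456602, minus strand: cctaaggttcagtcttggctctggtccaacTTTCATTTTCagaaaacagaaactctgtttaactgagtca
Isg15, chr4:156200845-156200926, minus strand: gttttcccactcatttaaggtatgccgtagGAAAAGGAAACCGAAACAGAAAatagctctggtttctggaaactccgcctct

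Inflammatory genes controlled by NF-kB had 11 falls and 1 rise among 31 tested (median -0.74). Tnf, the inflammatory cytokine, went from 165, 158 and 144 CPM to 31.2, 16.1 and 40.2 CPM (-2.41 ± 0.30, adjusted p = 0.00011). Clec4e, which senses mycobacterial glycolipid, went from 76.2, 67.5 and 48.0 CPM to 0, 1.16 and 1.15 CPM (-6.32 ± 0.84, adjusted p = 0.00031), and the inhibitor gene Nfkbia from 343, 343 and 213 CPM to 95.6, 51.9 and 113 CPM (-1.79 ± 0.29, adjusted p = 0.00094). The rise was in the NF-kB subunit gene Nfkb1 (0.90 ± 0.26, adjusted p = 0.0253), a call lost without day 0 replicate 1, day 0 replicate 2 or day 6 replicate 1 (0.75 to 0.93). Il1b stayed near the limit of counting, with 2.75, 0.106 and 0.206 CPM at day 0, where the 3 libraries span over 10-fold, and 5.49, 2.55 and 3.35 CPM at day 6 (adjusted p = 0.373). In edgeR without the filter on low counts Il1b was called higher (adjusted p = 2.3e-04). The number of falls in this list was 6 without day 6 replicate 1 and 7 without day 6 replicate 2, day 0 replicate 1 or day 0 replicate 2, and 17 with all 24 libraries in the fit.

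Genes of the ATF4 response, which supplies amino acids and one-carbon units under stress, had the highest share of falls among the lists: 29 of 33 tested members fell and 0 rose, with a median of -2.29. Mthfd2, the mitochondrial folate enzyme, went from 181, 162 and 181 CPM to 8.72, 8.69 and 14.6 CPM (-4.03 ± 0.27, adjusted p = 1.9e-06). Mthfd2 lies on chromosome 6 at 83305691 to 83325908. Asns, asparagine synthetase, went from 384, 352 and 255 CPM to 19.9, 21.6 and 20.6 CPM (-3.99 ± 0.31, adjusted p = 3.2e-06). The aminoacyl-tRNA synthetase genes Gars and Sars, for glycine and serine, fell by 2.14 ± 0.17 and 2.12 ± 0.18. Atf4 itself, the transcription factor of this response, went from 700, 679 and 499 CPM to 115, 67.8 and 113 CPM (-2.66 ± 0.24, adjusted p = 8.9e-06). Slc7a11, which imports cystine, went from 145, 107 and 54.4 CPM to 1.31, 0 and 1.53 CPM (-6.71 ± 0.94, adjusted p = 0.0007), and Trib3, a feedback inhibitor, from 223, 220 and 104 CPM to 3.82, 5.91 and 1.15 CPM (-5.66 ± 0.69, adjusted p = 0.00027). The groups did not overlap for any of these genes. In 31 of the 33 tested members the day 6 libraries all lay below the day 0 libraries, against 17.9% of all tested genes. Leaving out any 1 library left 26 to 29 falls.

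The composite element bound by ATF4 with C/EBP factors (CARE) was searched as TGATGNAA on both strands of the same 250 bases. It was found for 9 of 29 members with a promoter sequence (31.0%), for 8 of the 26 that fell (30.8%) and for 2.4% of tested genes. Gars holds 1 match and Slc7a11 holds 2 in opposite orientation, in capitals.
Gars, chr6:55037941-55038000, plus strand: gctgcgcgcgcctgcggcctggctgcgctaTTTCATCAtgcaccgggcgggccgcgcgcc
Slc7a11, chr3:50443623-50443709, minus strand: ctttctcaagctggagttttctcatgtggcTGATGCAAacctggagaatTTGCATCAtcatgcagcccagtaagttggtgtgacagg

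Transcripts for sugar breakdown were among those that fell: 19 of 37 tested genes of glycolysis and hypoxia fell and 0 rose (median -1.34). Aldoa, the aldolase of glycolysis, went from 3793, 4025 and 3227 CPM to 794, 778 and 826 CPM (-2.20 ± 0.16, adjusted p = 2.2e-06). Aldoa lies on chromosome 7 at 126795234 to 126809108. Pfkp, a form of the rate-setting phosphofructokinase, went from 233, 245 and 193 CPM to 22.3, 30.7 and 24.6 CPM (-3.11 ± 0.24, adjusted p = 3.2e-06). Other enzymes of the pathway fell too, with triosephosphate isomerase Tpi1 at -1.997 ± 0.17 and phosphoglycerate mutase Pgam1 at -1.92 ± 0.17. The day 6 values of these 4 genes lay in a narrow band, well under the lowest day 0 library. Among 27 tested genes of the NRF2 response, glutathione and the pentose phosphate pathway, 15 fell and 1 rose (median -1.34). Sqstm1, an autophagy adaptor and NRF2 target, went from 4568, 4257 and 2008 CPM to 601, 655 and 610 CPM (-2.54 ± 0.25, adjusted p = 1.7e-05), and Srxn1, which repairs peroxiredoxins, fell by 2.78 ± 0.32. The 1 rise was in Mgst1, a membrane glutathione transferase, from 31.3, 23.8 and 24.9 CPM to 91.5, 46.6 and 106 CPM (1.61 ± 0.36, adjusted p = 0.00804).

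Protein folding and sterol synthesis had falls without rises. Of 18 tested chaperones of the unfolded protein response 9 fell (median -0.65), and 5 without day 0 replicate 1 or without day 0 replicate 2. Hspa5, the main chaperone of the endoplasmic reticulum, went from 1981, 1824 and 1019 CPM to 534, 585 and 653 CPM (-1.45 ± 0.23, adjusted p = 0.00061). Of 25 tested cholesterol synthesis genes 6 fell (median -0.58, and -0.23 without day 0 replicate 3), among them Fdft1, squalene synthase, from 81.4, 78.5 and 110 CPM to 45.9, 31.9 and 39.5 CPM (-1.20 ± 0.24, adjusted p = 0.00333). Neither gene had overlapping groups.

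Genes of mitosis were lower at day 6. Of 32 tested mitotic genes 19 fell and 0 rose, with a median of -1.48. In 28 all day 6 libraries lay below all day 0 libraries, against 17.9% of all tested genes. Ccnb1, the cyclin that starts mitosis, went from 64.7, 52.3 and 90.1 CPM to 9.91, 17.2 and 20.0 CPM (-2.14 ± 0.42, adjusted p = 0.00318). Aurka, a spindle kinase, went from 28.6, 34.8 and 59.9 CPM to 9.79, 3.94 and 12.9 CPM (-2.21 ± 0.45, adjusted p = 0.00406), and the kinase Plk1 from 36.4, 51.5 and 79.3 CPM to 11.34 to 14.83 CPM (-2.09 ± 0.44, adjusted p = 0.00504). Day 0 replicate 3 was the highest library for all 3. Of 33 tested DNA replication genes 1 fell, the clamp loader Rfc5 (-0.77 ± 0.25, adjusted p = 0.0479), and 0 rose (median -0.34, and 0.01 without day 0 replicate 3); that call was lost without any 1 of 5 libraries, day 0 replicate 1 being the exception (-0.79 to -0.56). Whether the 2 lists differ was not tested. The mitotic count was sensitive to single libraries: 5 fell without day 0 replicate 3, 7 without day 6 replicate 1 or 2, 12 without day 0 replicate 1 and 11 without day 0 replicate 2, with medians of -1.52 to -1.25.

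Many mitotic promoters carry CCAAT boxes, bound by NF-Y, and a cell cycle homology region (CHR), bound by the DREAM complex. CCAAT was found on either strand for 19 of 25 mitotic members with a promoter sequence (76.0%) and 40.5% of tested genes, and TTTGAA for 9 of 25 (36.0%) and 12.8%. Among the members that fell, CCAAT was found for 13 of 15 (86.7%) and TTTGAA for 7 of 15 (46.7%). The stretches for Aurka and for cyclin B2 (Ccnb2) hold 2 and 3 CCAAT boxes, and Ccnb2 also holds TTTGAA. Ccnb2 went from 58.8, 61.4 and 104 CPM to 14.6, 10.9 and 24.9 CPM (-2.15 ± 0.54, adjusted p = 0.0167), a call lost without day 0 replicate 3, day 6 replicate 1 or day 6 replicate 2 (-2.05 to -1.79). Such matches describe the letters only.
Aurka, chr2:172370571-172370651, minus strand: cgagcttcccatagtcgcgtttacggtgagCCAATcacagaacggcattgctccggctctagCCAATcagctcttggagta
Ccnb2, chr9:70421555-70421751, minus strand: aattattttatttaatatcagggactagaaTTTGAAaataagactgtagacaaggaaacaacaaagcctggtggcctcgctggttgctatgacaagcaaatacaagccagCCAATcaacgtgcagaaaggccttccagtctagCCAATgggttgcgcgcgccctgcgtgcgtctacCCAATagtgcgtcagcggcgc

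Of 35 tested oxidative phosphorylation genes 2 rose, both mitochondrially encoded, 7 fell, all nuclear, and the others were not called (median -0.18, between -0.59 and 0.08 with 1 library of day 6 left out). Without the filter on low counts 5 rose and 5 fell, and whether the 2 genomes differ was not tested. mt-Nd4, a subunit of complex I, went from 467, 484 and 646 CPM to 1837, 1668 and 1258 CPM (1.58 ± 0.25, adjusted p = 0.0006), and mt-Cytb, of complex III, from 2201, 2473 and 3057 CPM to 6934, 3819 and 5335 CPM (1.06 ± 0.24, adjusted p = 0.00735). Day 6 replicate 1, the library with the highest mitochondrial share, was the highest for both, and the other 2 day 6 libraries also exceeded day 0. Nuclear Atp5b, of the ATP synthase, went from 1368, 1270 and 1531 CPM to 700, 714 and 844 CPM (-0.88 ± 0.14, adjusted p = 0.00082). Leaving out replicate 1, 2 or 3 of day 0 gave 2, 3 or 4 nuclear falls, leaving out replicate 1 of day 6 gave 4, and there were 3 in a fit of the 6 libraries alone and 12 with all 24. Of 31 tested ribosomal protein genes 3 fell, 1 without day 0 replicate 1, and 0 rose, against 8 without the filter on low counts. Falls made up 8.39% of all tested genes. Their median of 0.25 was -0.60 without day 6 replicate 3 and -0.16 with the replicate block. Other lists whose medians moved by over 1.5 times with 1 library left out included macrophage transcription factors (1.19 without day 0 replicate 3), complement (0.23 without day 6 replicate 1), toll-like receptors (0.17 without day 6 replicate 3), purine receptors (0.27 without day 0 replicate 3), disease-associated microglia (0.35 without day 6 replicate 2) and MHC class II (-0.02 without day 0 replicate 1).

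Markers of fibroblasts and of some neural cells were also higher at day 6. The summed level of 14 fibroblast and mural markers was 9.40, 12.9 and 41.3 CPM at day 0 and 866, 486 and 965 CPM at day 6, and 10 of 12 tested members rose. Col1a1, a fibrillar collagen, went from 0.739, 1.70 and 9.28 CPM, a span of over 10-fold at day 0, to 247, 141 and 301 CPM (5.87 ± 0.91, adjusted p = 0.0013), and Tagln, of smooth muscle, from 1.06, 2.12 and 0.515 CPM to 40.1, 4.40 and 22.4 CPM. The part of such cells in the rises of Col8a1, Dcn, Col4a1, Sparc, H19 and the other matrix genes was not tested. Day 6 replicate 2 was the lowest in the fibroblast sum and for Sparc, Tagln and H19.

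Many neural markers were present at low levels, but some were not. Of 12 tested neuronal markers 7 rose and 1 fell, the ubiquitin hydrolase Uchl1, whose call was lost whichever of the 6 libraries was left out. The sum of all 19 listed neuronal markers went from 16.5, 23.5 and 22.6 CPM to 61.5, 61.3 and 40.0 CPM. Tubb3, a neuronal tubulin, had 0, 0.106 and 0 CPM at day 0 and 6.33, 5.45 and 6.21 CPM at day 6. Of 9 tested astrocyte markers 5 rose, 3 without day 6 replicate 2, day 0 replicate 2 or day 0 replicate 3, and 1 fell. The filament gene Gfap went from 0, 0.106 and 0 CPM to 4.66, 14.6 and 5.35 CPM, and the aldolase Aldoc fell from 84.8, 82.1 and 135 CPM to 24.8, 53.8 and 36.9 CPM, a call lost without any 1 library other than day 6 replicate 2. The astrocyte sum was 113, 114 and 184 CPM at day 0 and 78.1, 128 and 100.5 CPM at day 6, with overlapping groups. Without Aldoc, left out after its values were seen, 8 tested members summed to 27.8, 31.9 and 48.6 CPM at day 0. Their day 6 sums were 53.1, 72.3 and 61.8 CPM. In the oligodendrocyte lineage 7 of 12 tested markers rose, 4 without day 0 replicate 1 or day 0 replicate 2 and 4 of 8 tested in the 6 libraries alone, with Olig1 at 0.211, 0.106 and 0 CPM and then 13.6, 20.7 and 12.0 CPM. All 13 listed markers of this lineage summed to 163, 139 and 143 CPM at day 0 and 229, 438 and 210 CPM at day 6. Mbp alone had 40.67, 31.25 and 57.09 CPM at day 0 and 97.9, 156.6 and 76.84 CPM at day 6. Among neural progenitor markers 7 of 10 rose, including the proteoglycan genes Ncan and Bcan, while Vim, a filament that macrophages also make, fell from 1851, 1970 and 2138 CPM to 298, 161 and 439 CPM (-2.73 ± 0.28, adjusted p = 2.5e-05). All 12 listed progenitor markers summed to 1897, 2039 and 2209 CPM at day 0 and 452, 301 and 563 CPM at day 6. Without Vim, left out after its values were seen, 9 tested members summed to 45.8, 69.2 and 70.5 CPM at day 0 and 153, 139 and 123 CPM at day 6. The neuronal markers Slc17a6 and Slc17a7 had no count in any of the 6 libraries. Of 6 tested endothelial markers Flt1 rose from 2.01, 2.75 and 2.99 CPM to 46.0, 74.9 and 29.2 CPM, and Vwf and Tie1 fell from 8.04 to 17.7 CPM to 0.116 to 2.77 CPM. Endothelial markers summed to 43.7 to 63.4 CPM at day 0 and 51.9 to 90.5 CPM at day 6; without Flt1, left out after its values were seen, the other 5 tested members summed to 37.3 to 60.1 CPM at day 0 and 13.9 to 21.1 CPM at day 6. The sums of pluripotent cell markers were 2.75 to 4.86 and 5.68 to 6.93 CPM, and those of lymphocyte markers 5.49 to 13.8 and 1.43 to 11.01 CPM. Pou5f1, the pluripotency factor, had 1.58, 0.424 and 0.824 CPM at day 0 and 1.31, 2.43 and 2.01 CPM at day 6, overlapping groups (adjusted p = 0.379). The part of neural cells in the rises of Ncan, Sparcl1 and Meg3 was not tested.

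**Figure D3:**
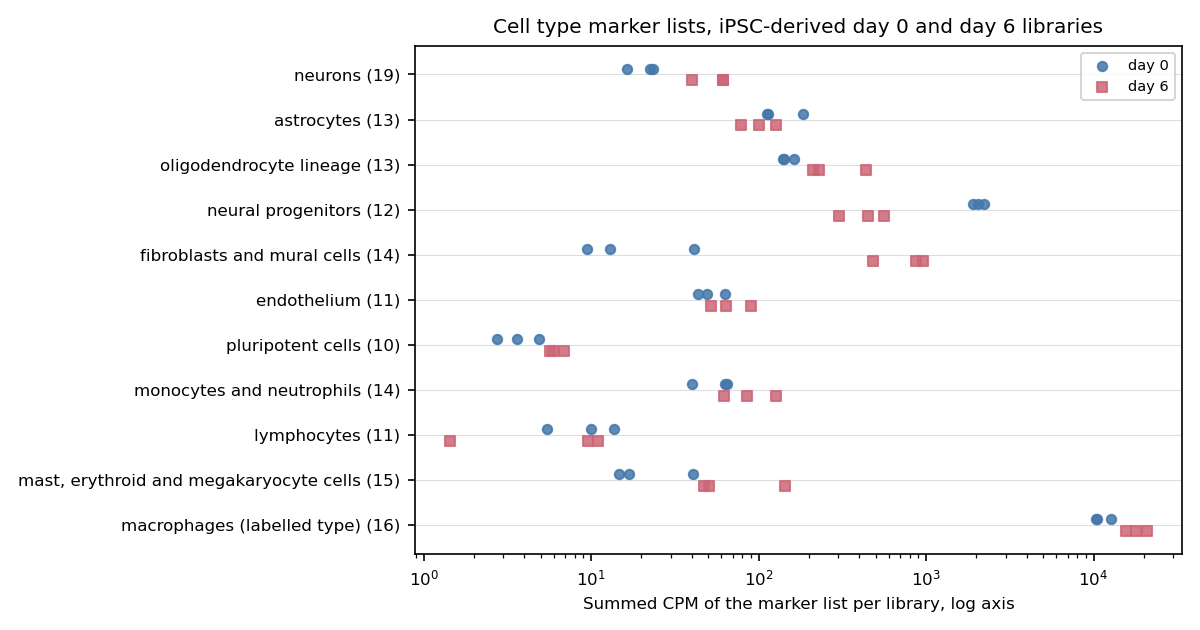
Summed CPM of each cell type marker list (number of markers in brackets, log axis) in the 3 day 0 and 3 day 6 libraries. Fibroblast and mural markers go from 9.40 to 41.3 CPM at day 0 to 486 to 965 CPM at day 6, while macrophage markers lie between 10310 and 20900 CPM throughout.

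Whether day 6 differed from the days on either side was tested in the same 12 iPSC-derived libraries. Against day 3, 5 genes were higher and 6 lower at day 6, 0.0813% of those tested, with 1458 at an unadjusted p below 0.05. The lower genes were Psap, Ptafr, Atp2b1, Ctsl, Pcyt1a and H2-D1. Psap, the precursor of the saposins that activate lysosomal lipid breakdown, had 3228, 3002 and 2587 CPM at day 0, 7467, 6804 and 8008 CPM at day 3 and 3300, 3622 and 3359 CPM at day 6 (-1.12 ± 0.15, adjusted p = 0.00978, day 6 against day 3). Every day 3 library lay above every library of day 0 and day 6, and Psap did not pass the test between day 0 and day 6 (adjusted p = 0.323). Ctsl, a lysosomal cysteine protease, H2-D1, a class I antigen presentation molecule, and Atp2b1, a calcium pump, also had their highest mean at day 3, with day 3 means of 3508, 3049 and 475.5 CPM and day 6 values of 1175 to 1899, 1550 to 1732 and 201 to 272 CPM.

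The 5 genes higher at day 6 than at day 3 were Ccn1, Ccnd2, Peg3, H19 and Itm2a. H19 had 2.56, 4.11 and 15.2 CPM at day 3 and 71.8, 52.2 and 107 CPM at day 6 (3.41 ± 0.56, adjusted p = 0.0481), and 27.6, 29.5 and 27.98 CPM at day 12. Ccnd2, a G1 cyclin, had 4.43, 4.79 and 7.20 CPM at day 3 and 78.6, 22.1 and 73.0 CPM at day 6 (3.40 ± 0.45, adjusted p = 0.00978). Ccn1, a matricellular protein, went from 1.58, 0.798 and 2.36 CPM at day 3 to 49.0, 21.9 and 43.2 CPM (4.58 ± 0.69, adjusted p = 0.0398). The day 3 and day 6 libraries did not overlap for these 3 genes, and day 6 replicate 2 was the lowest of day 6 in each. Leaving out day 6 replicate 1, day 6 replicate 3 or day 3 replicate 1 left 0 genes called by edgeR (1211, 1477 and 1069 at an unadjusted p below 0.05), without day 3 replicate 2 there were 2, without day 6 replicate 2 there were 27 and without day 3 replicate 3 there were 28. DESeq2 called 277 genes on all libraries.

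Between day 6 and day 12, 2 genes rose and 3 fell, 0.0370% of those tested, with 1160 at an unadjusted p below 0.05. Siglec1, the sialic acid receptor of resident macrophages, had 75.2, 67.6 and 98.7 CPM at day 0, 52.7, 30.4 and 35.4 CPM at day 6 and 124, 143 and 122 CPM at day 12 (1.71 ± 0.23, adjusted p = 0.017), so that day 6 was the lowest of the sampled days on its mean of 39.5 CPM. Fosb, an AP-1 factor, went from 14.6, 14.95 and 11.1 CPM to 152, 307 and 60.03 CPM. Itgax, the integrin CD11c, went from 21.5, 23.5 and 18.3 CPM at day 6 to 2.57, 1.10 and 3.39 CPM at day 12 (-3.17 ± 0.40, adjusted p = 0.0149); its day 0 values of 24.1, 11.8 and 22.7 CPM overlapped those of day 6. Eepd1 and Plpp1, a nuclease and a lipid phosphatase, were at -1.58 and -1.54. Without day 12 replicate 1, day 12 replicate 2 or day 6 replicate 2, edgeR called 0 genes between these days (912, 871 and 1106 at an unadjusted p below 0.05), without day 6 replicate 1 or 3 it called 3, and without day 12 replicate 3 it called 86. DESeq2 called 162 genes. No gene was called in the same direction against both day 3 and day 12.

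**Figure D4:**
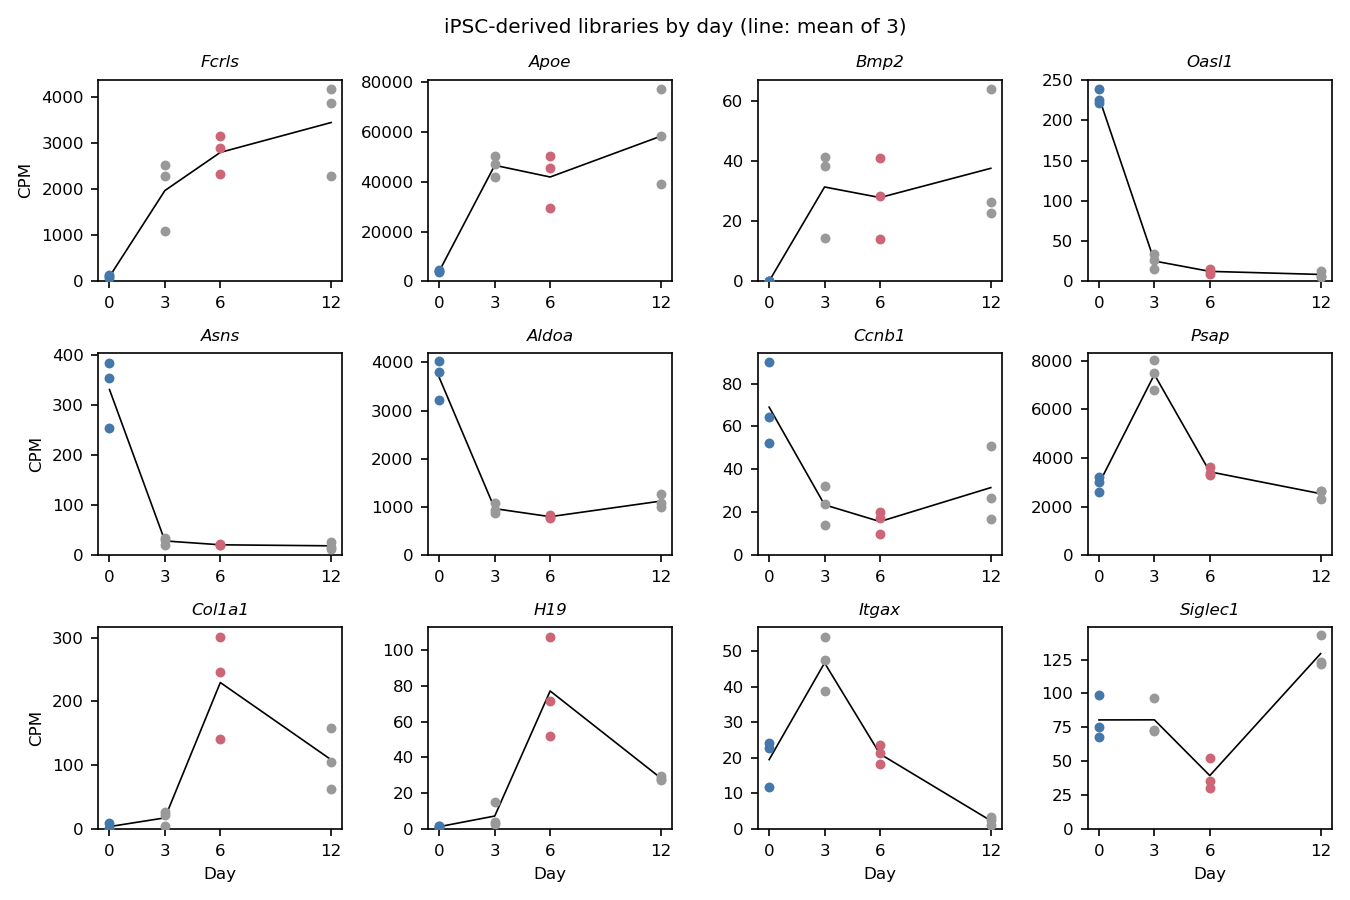
CPM of 12 genes in the 12 iPSC-derived libraries by day; points are libraries (blue day 0, red day 6, grey day 3 and day 12) and the line joins the means of 3. Oasl1, Asns and Aldoa lie low from day 3 onward, Psap is high at day 3, H19 is higher at day 6 than at day 3, and Itgax is low at day 12.

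The same interval was measured in bone marrow-derived macrophages, and the difference between the 2 changes was tested in a fit of all 24 libraries. The change differed for 2951 of 15000 genes (19.7%), more positive in iPSC-derived cells for 1293 and more negative for 1658; with no scaling factors the split was 931 and 2116. All 33 tested interferon genes differed, each more negative in iPSC-derived cells, and the list's median change was 2.15 in bone marrow-derived cells against -1.17. Oasl1 went from 0.902, 0.812 and 1.30 CPM to 23.6, 26.9 and 33.3 CPM in bone marrow-derived cells, the opposite direction (difference -8.98 ± 0.52, adjusted p = 2.5e-11). For Rsad2 the bone marrow-derived libraries held 36.6 to 41.8 CPM at day 0 and 86.6 to 94.9 CPM at day 6 (difference -4.17 ± 0.40, adjusted p = 1.4e-07), again a rise against a fall.

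Mitosis, amino acid and sugar genes also changed differently between the sources. Like Oasl1 and Rsad2, the genes Ccnb2, Mthfd2 and Asns were far higher at day 0 in iPSC-derived cells. Their differences concern the change, and do not measure how far the sources lay apart at day 6. Of 32 tested mitotic genes 31 differed, 30 of them more negative in iPSC-derived cells, and the list's median change was 3.32 in bone marrow-derived cells. Ccnb2 had 0, 0.116 and 0.1303 CPM at day 0 and 13.5, 16.6 and 22.6 CPM at day 6 in bone marrow-derived cells, against a fall in iPSC-derived cells (adjusted p = 9.3e-08 for the difference). For the ATF4 list 26 of 33 differed and for glycolysis 27 of 37, each more negative in iPSC-derived cells, with bone marrow-derived medians of 0.69 and 1.15. Mthfd2 rose from 2.96, 2.90 and 4.82 CPM to 17.7, 14.9 and 20.8 CPM in bone marrow-derived cells (difference -6.34 ± 0.37, adjusted p = 2.5e-11). Asns did not pass the test there, with 3.13 to 4.69 CPM at day 0 and 6.17 to 6.72 CPM at day 6 (difference -4.67 ± 0.58, adjusted p = 4.2e-06).

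In the other direction, Bmp2 had 15.5, 11.02 and 14.9 CPM at day 0 and 6.28, 7.52 and 8.07 CPM at day 6 in bone marrow-derived cells, against its rise from near 0 in iPSC-derived cells (adjusted p = 3.4e-07 for the difference). Selenop, a selenium carrier secreted by resident macrophages, went from 1122, 953 and 1707 CPM to 9555, 13980 and 6447 CPM in iPSC-derived cells and from 18320, 16340 and 17080 CPM to 6037, 5585 and 5268 CPM in bone marrow-derived cells (difference 4.62 ± 0.31, adjusted p = 4.4e-10). Clec7a and Tbc1d4, a regulator of glucose transporter traffic, likewise rose in one source and fell in the other, with differences of 4.31 ± 0.48 and 4.11 ± 0.36. Homeostatic microglia genes did not differ in 1 direction: of 24 tested, the change was more positive in iPSC-derived cells for 8 and more negative for 7. Fcrls rose in both sources and further in iPSC-derived cells (difference 2.56 ± 0.37, adjusted p = 2.4e-05). Cx3cr1 rose in both and by a larger ratio in bone marrow-derived cells (-5.15 ± 0.65, adjusted p = 1.1e-05), which held at most 2.58 CPM at day 0 and 658 to 706 CPM at day 6. The iPSC-derived libraries were higher at both times, so the difference concerns the ratio and not the level reached.

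**Figure D5:**
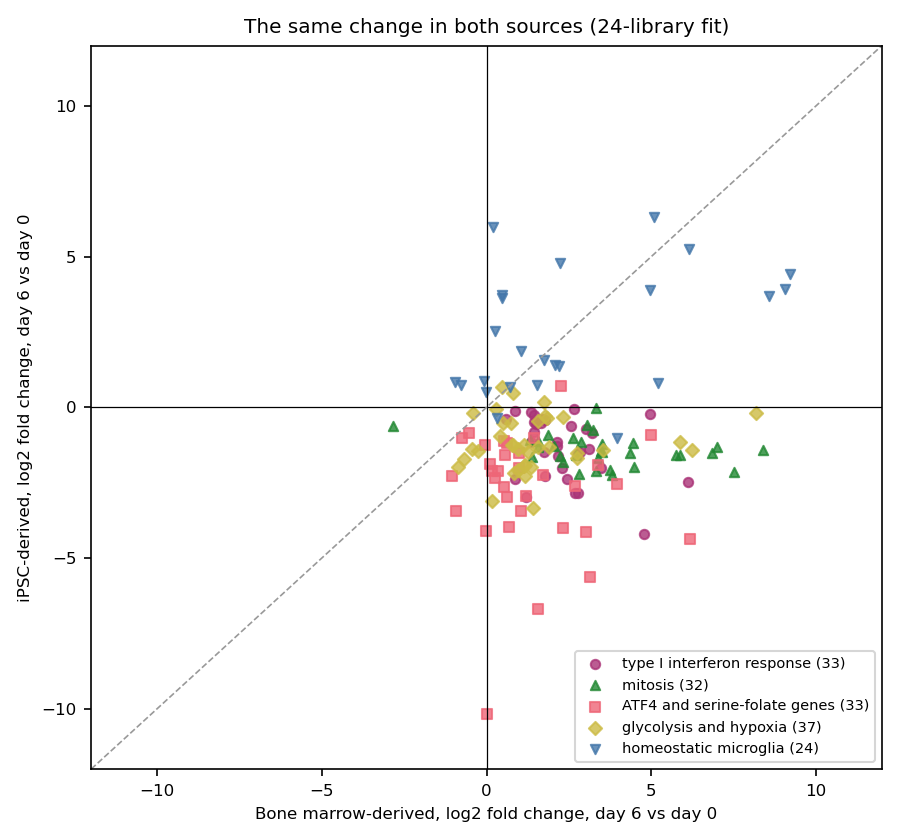
Log2 fold change from day 0 to day 6 of each tested member of 5 gene lists in bone marrow-derived (x axis) and iPSC-derived macrophages (y axis), both from the fit of 24 libraries; the dashed line marks equal change. Interferon and mitosis genes lie mostly in the lower right, with list medians of 2.15 and 3.32 on the x axis, and microglia genes mostly above 0 on the y axis.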

How the data were processed

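RNA-seq libraries were made from total RNA with the SMART-seq v2 protocol and an ERCC spike-in, per the labels' protocols; the table holds 0 ERCC entries. Per the submitters' processing notes, reads were aligned with STAR to mm10 (GRCm38). Per the file header, featureCounts 1.5.0-p1 counted read pairs over GENCODE exons by gene, ignoring strand and dropping multi-mapping and multi-gene reads, so overlapping antisense genes cannot be told apart. The deposited values are whole-number counts per gene, 47643 genes in 24 libraries of 5839316 to 11805478 counts.

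Groups came from the labels alone. The test was the quasi-likelihood test of edgeR 4.0.16 under R 4.3.3 (TMM scaling, filterByExpr with a count minimum of 10, robust quasi-likelihood fit, Benjamini-Hochberg adjustment, threshold 0.05). The 12 iPSC-derived libraries shared 1 estimate of the spread (biological coefficient of variation 0.388), and the difference between sources used all 24 (0.338). The SE is the absolute log2 fold change divided by the square root of the test's F statistic, so it holds no information beyond the test. A floor of 3 counts and exact 95% binomial intervals were used for genes with few counts. DESeq2 1.42.0, other scalings and filters, other sets of libraries, a replicate block and leaving out each library were alternatives. Named genes were the 12 largest non-overlapping changes each way with at least 20 CPM in the higher group, up to 4 called members per list with the lowest p and any against the trend, the largest source differences, and a set of fixed genes. The members and lists were chosen with earlier results of these data known. The fit was tested on simulated data. Promoter sequences are from RefSeq (GRCm38.p6). Figures were drawn with matplotlib 3.10.9.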

Additional observations from a re-analysis of the deposited data

Results flagged for a closer look

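These results were singled out because the day 0 to day 6 change differed between iPSC-derived and bone marrow-derived macrophages in edgeR's test of that difference (adjusted p below 0.05, 2951 of 15000 genes). The log2 change was more positive in iPSC-derived cells for Bmp2 by 9.32, for the Wnt modulator Dkk2 by 7.33, for the small secreted protein gene Wfdc17 by 6.16, for Selenop by 4.62, for the prostaglandin-degrading Hpgd by 4.51, for the erythropoietin receptor Epor by 4.50, for Clec7a by 4.31 and for Tbc1d4 by 4.11. Among fixed genes the difference was 2.56 for Fcrls, 2.39 for Apoe, 2.27 for Gpr34 and 0.95 for Csf1r. It was more negative in iPSC-derived cells for Ptprc at -1.10, Mki67 at -3.34, Tmem119 at -4.79, Cx3cr1 at -5.15 and Tnf at -5.34. The most negative differences were Cxcl2 at -8.997, H2-M2 at -9.07, Ptgir at -9.09, Ccnb2 at -9.65, Gpr141 and Gem both at -9.69, Acod1 at -10.38 and Aqp9 at -17.42. Aqp9 had no count in any bone marrow-derived day 0 library and none in any iPSC-derived day 6 library, so its value depends on the prior count and is no measure of size. Bmp2 in iPSC-derived and Ccnb2 in bone marrow-derived cells were near the limit of counting at day 0. In iPSC-derived cells Cxcl2 was also at low levels at day 6, and Tmem119 at day 0. The size of their differences is therefore uncertain as well. The same holds for any other gene listed here with few counts in a group.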

How the results depend on the processing

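Between day 6 and day 0, 2488 genes were called, against 1938 to 3137 with DESeq2, other scalings, other filters, the 6 libraries alone or a replicate block (2598), 3804 with all 24 libraries in the fit, and 1603 to 2269 with 1 library left out. Between day 6 and day 3, the 11 calls became 277 with DESeq2, 329 without a filter on low counts, 340 with 24 libraries, 2 with the 6 libraries alone (1331 at an unadjusted p below 0.05), 28 with the replicate block and 0 to 28 with 1 library left out. Between day 12 and day 6, the 5 calls became 162, 378, 186, 0 (862 at an unadjusted p below 0.05), 16 and 0 to 86 under the same settings. The cause was not tested. The source difference gave 2434 to 3488 calls over the settings run, with a split of 931 more positive and 2116 more negative with no scaling factors. Of 3037 values for 218 named genes, 2873 kept direction and side of the threshold, 145 lost the call, 16 gained one and 3 changed sign: Ptprc and Ccr2 without day 0 replicate 1 (Ptprc -0.373 to 0.027 and Ccr2 -1.046 to 1.731 over all left-out libraries), and Itgax without day 0 replicate 2 (-0.101 to 0.340); none of these 3 was called between day 0 and day 6. Same-numbered libraries of day 0 and day 6 had correlated deviations of 0.063, -0.008 and 0.038, so the numbers were not taken as pairs. Genes with few counts in a group are limited by depth, and 3 libraries a group limit all calls.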
